A study of Drosophila melanogaster with 6 samples.

Results

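The Yellow gene family of Drosophila encodes secreted proteins named after yellow (y), a gene that the adult and larval cuticle needs for black melanin. Melanin and the tanned proteins of the cuticle are made from tyrosine, by way of dopa and dopamine, in the epidermis late in embryogenesis and again at each moult, and blood cells make melanin in wounds. Of the Yellow proteins, those of yellow-f and yellow-f2 are known as dopachrome conversion enzymes, which speed a step between dopa and melanin, while most of the others have no settled biochemical role. The members were chosen by name, as probe sets paired with exactly 1 of 10 listed yellow genes, and 9 probe sets were found among the 18769 tested, 1 for each of 9 genes of the 11982 that have such a probe set. For yellow-c no probe set was paired with that gene alone, and it was not analysed here. The family was picked with its difference between the groups already known, so its values in that comparison are given as a description and support no conclusion about the family.

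RNA of whole embryos, at stages 11 to 16 and aged at 25 C, was hybridised to 6 Affymetrix arrays, 1 per sample. The 3 wild type samples came from Oregon R, and in the 3 Sage overexpression samples the tub-Gal4 driver controlled UAS-Sage. The labels name Oregon R as background for these too. Sage belongs to the basic helix-loop-helix transcription factors and acts in the embryonic salivary gland, and the tubulin promoter of the driver is active in most cells. The comparison addresses which genes change when Sage is present throughout the embryo. The labels give the controls neither driver nor transgene, so effects of Gal4 or of either insertion cannot be told apart from those of Sage. They do not name separate cultures as the source of replicates, and p-values therefore measure only the spread between these samples.

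The probe set for sage read 7.68, 8.08 and 7.40 in wild type and 12.17, 12.31 and 12.28 in Sage overexpression, on the log2 scale of the deposited values. This was a 23.1-fold higher level on the Sage arrays (limma adjusted p 7.5e-05), in the direction of the labels. Array-to-array correlations lay between 0.960 and 0.982 across the groups and between 0.975 and 0.996 within them, and the number of arrays limits the precision. Tissue markers fixed as lists lay above the control range for neurons (3 of 3 measured), glia (2 of 2) and epidermis (3 of 3). In wild type 3 of 4 blood cell markers and 1 of 2 midgut markers were above it too, but Hml and Jon25Bi were not. The 1 germ line marker measured, vas, also lay within it. That range, group means of 3.23 to 5.35, comes from 70 control probe sets whose names point to no fly target. Markers of late cuticle and of cell division differed with the groups in summed level. By limma at an adjusted p under 0.05, 2 of the 24 Tweedle genes were raised and 0 lowered, and 23 had positive differences. With the brightest probe set of each gene, 4.31% of all genes were raised and 3.49% lowered. Of all 18769 probe sets 9405 had positive differences. Of 5 cell division genes 2 were measured, CycB and CycB3, and 0 passed. The summed level of the 24 Tweedle cuticle genes, taken off the log scale, was 15570 to 44000 in wild type and 47360 to 61540 in Sage overexpression, and that of CycB and CycB3 was 2489 to 5629 and 1229 to 1625. The 5′ control probe sets for actin, GAPDH and eIF-4a differed, Sage minus wild type, by log2 values of -1.38, -1.21 and -1.21, against -0.09, -0.38 and -0.39 for the 3′ ones. The part of these differences in the results below was not tested.

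Within the family 5 genes were higher in the Sage embryos, yellow-d by far the most, 1 was lower, and 3 did not pass. Raised were yellow-d, yellow-b, yellow-e, yellow-f2 and yellow-d2, and yellow-h was lowered, by limma at an adjusted p under 0.05 over all 18769 probe sets. Of all probe sets 3.24% were raised and 2.88% lowered by the same rule, 6.12% in all. All 3 Sage arrays lay above all 3 wild type arrays for 5 of the 9 members and below them for 3, where 14.0% and 13.6% of all probe sets were so placed, 27.6% together. The median difference of the 9 was 0.76 on the log2 scale, beside 0.0005 for all probe sets. With the replicate number as a block the same 5 and 1 passed, although over all probe sets the raised share went from 3.24% to 5.74% and the lowered share from 2.88% to 5.94%. When 1 array was left out, 2 to 5 members were raised and 0 or 1 lowered. Without Sage array 1, and again without Sage array 3, only yellow-d and yellow-b passed among the members.

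**Figure D1:**
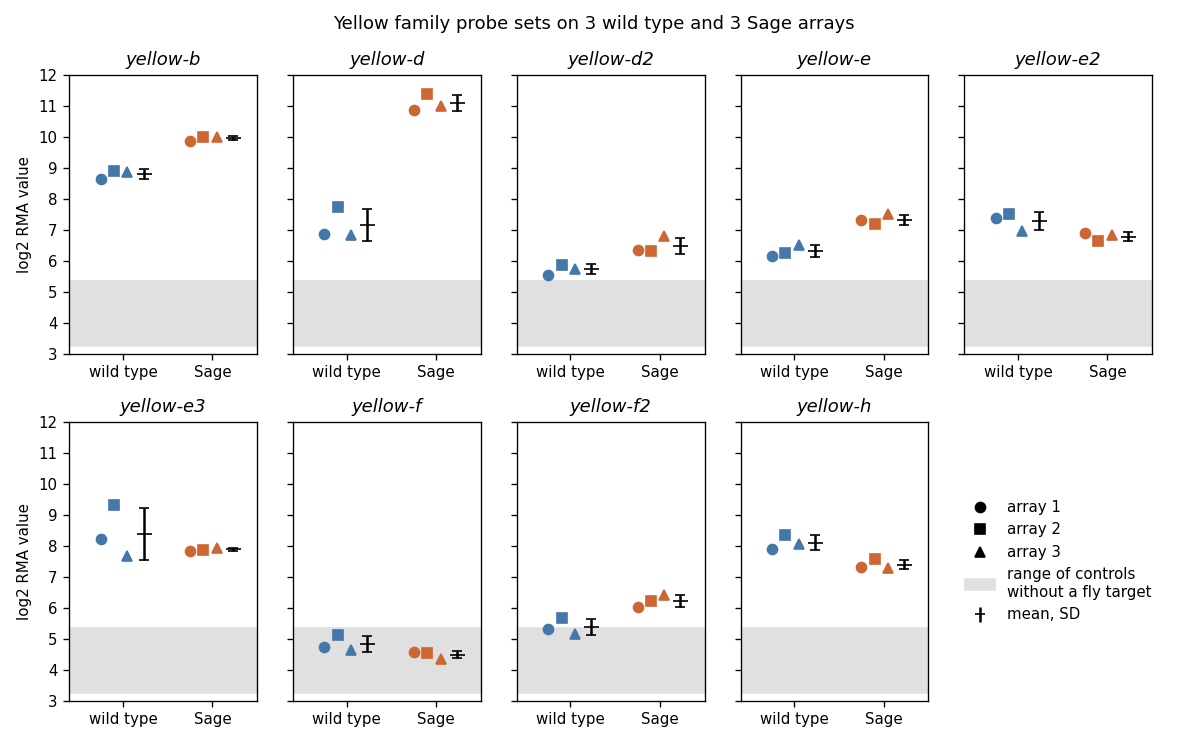
Log2 RMA value of each of the 9 Yellow family probe sets on each array, wild type in blue and Sage overexpression in orange, with the mean and SD of 3 arrays beside them and the range of control probe sets without a fly target in grey. The Sage arrays of yellow-d stand at 10.86 to 11.37, far above wild type at 6.83 to 7.75, whereas both groups of yellow-f lie in the grey range.

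The largest rise was that of yellow-d, on chromosome arm 2R. Its wild type arrays read 6.88, 7.75 and 6.83 and its Sage arrays 10.86, 11.37 and 11.01. The lowest Sage array was 3.12 above the highest wild type array, so the groups were far apart. Means were 7.15 ± 0.52 (SD, n = 3) and 11.08 ± 0.26, a log2 difference of 3.93 (SE 0.27), or 15.2-fold. In all, 17 of the 18769 probe sets had a larger positive difference. The neighbouring member yellow-d2, the next protein-coding gene in the Release 6 gene table, rose far less. It read 5.55, 5.88 and 5.73 in wild type and 6.34, 6.30 and 6.79 in Sage overexpression, with no overlap and a gap of 0.42 between the groups. The difference was 0.76 (SE 0.16), or 1.69-fold, and 664 probe sets had a larger rise. It missed the threshold without any 1 array other than wild type array 2, and also after median centring or quantile normalization (adjusted p up to 0.12).

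A doubling was seen for yellow-b, on arm 2L, and for yellow-e, on arm 3R. For yellow-b the wild type arrays read 8.63, 8.91 and 8.86 and the Sage arrays 9.87, 10.00 and 9.98. Both groups were tight, with SDs of 0.15 and 0.07, and the gap between them was 0.96. The mean rose by 1.16 (SE 0.10), or 2.23-fold, and like yellow-d this gene kept its call in all 15 alternative settings. The gene yellow-e, whose counterpart affects larval pigmentation in the silkworm, read 6.14, 6.25 and 6.52 in wild type and 7.32, 7.17 and 7.49 in Sage overexpression. All Sage arrays were higher, by a gap of 0.65, and the difference of means was 1.02 (SE 0.14), or 2.03-fold. It missed the threshold without Sage array 1 or 3 (adjusted p up to 0.059).

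The 2 dopachrome conversion enzyme genes lie side by side on arm 3R, and only one of them could be read above the control range. For yellow-f2 the values were 5.31, 5.67 and 5.16 in wild type and 6.03, 6.23 and 6.41 in Sage overexpression, without overlap. The wild type mean of 5.38 ± 0.26 stood just above the control range and the Sage mean of 6.22 ± 0.19 above it, so the difference of 0.84 (SE 0.16) may understate the rise. That call was lost with quantile normalization and without any 1 array other than wild type array 2 (adjusted p up to 0.155). For yellow-f both means, 4.82 ± 0.25 and 4.48 ± 0.12, lay within the control range, and no fold is given. Its wild type arrays read 4.73, 5.11 and 4.63 and its Sage arrays 4.56, 4.55 and 4.34, a separation of 0.08.

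The other members of the arm 3R group beside yellow-e had negative differences that did not pass. For yellow-e2 the values were 7.39, 7.51 and 6.95 in wild type and 6.88, 6.62 and 6.83 in Sage overexpression. The groups were apart by 0.06 only, and the difference of -0.50 (SE 0.16) passed in the fit with array weights and in the one without wild type array 3. For yellow-e3 the wild type arrays read 8.20, 9.30 and 7.65, a spread that took in all the Sage values of 7.83, 7.86 and 7.94. Its difference of -0.51 (SE 0.39) shrank to -0.05 without wild type array 2.

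The single fall that passed was that of yellow-h, on chromosome 4. It read 7.89, 8.35 and 8.06 in wild type and 7.31, 7.55 and 7.29 in Sage overexpression, so every Sage array was lower, by at least 0.33. The difference was -0.72 (SE 0.14), with wild type 1.64-fold higher. That is less than the falls of the 5′ control probe sets named above and more than those of the 3′ ones, and positions of probe sets along transcripts were not used. The call ended with quantile normalization, with the trend and robust settings, and without any 1 array other than wild type array 1 or 2 (adjusted p up to 0.176). In whole embryos, fewer cells of a type and less RNA per cell cannot be told apart, for this gene or any other described here.

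A further 4 Yellow relatives outside the chosen list had probe sets of their own, and none passed by limma or with the replicate block. No relative had an unadjusted p under 0.05. The founding gene y read 6.50, 5.60 and 6.52 in wild type and 6.0, 6.38 and 6.55 in Sage overexpression. The groups overlapped, and the difference of 0.11 had a 95% interval from -0.57 to 0.78. Both yellow-g and yellow-g2, which follicle cells use for the eggshell, and yellow-k had means within the control range in both groups, at 4.27 to 4.80, so no difference could be read at this signal.

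**Figure D2:**
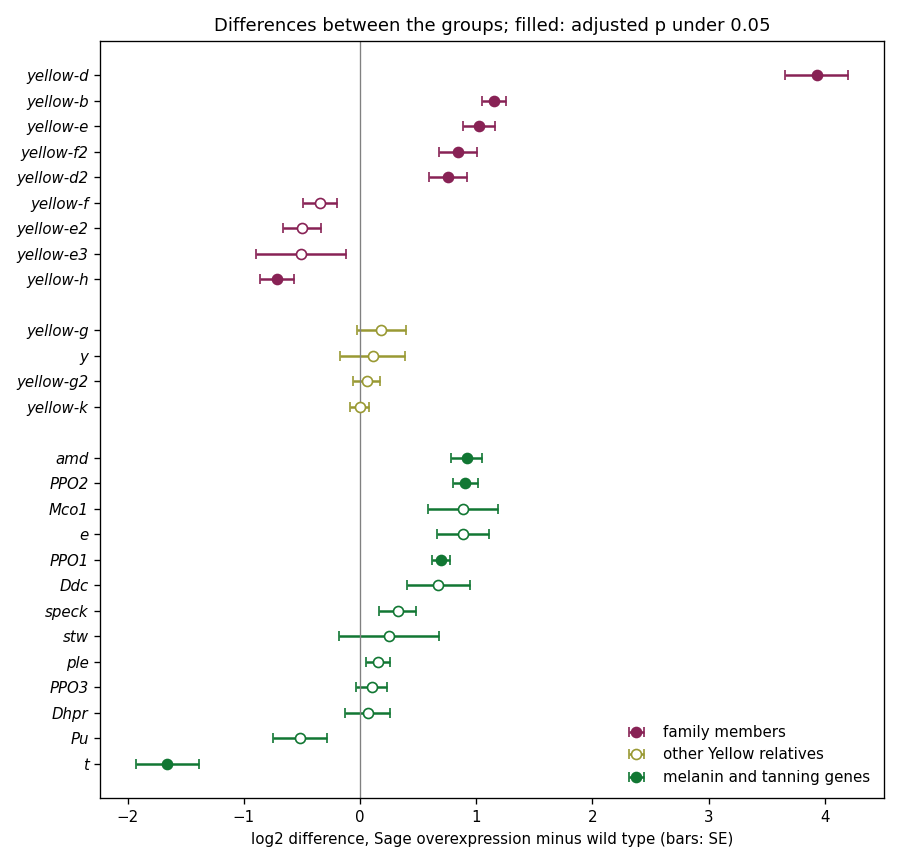
Sage overexpression minus wild type on the log2 scale, with the SE of the difference, for the 9 family members, the 4 other Yellow relatives and 13 melanin and tanning genes, filled where limma's adjusted p was under 0.05. The value of 3.93 for yellow-d stands alone at the right, and t lies at the opposite end with -1.66.

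Other genes of the formation of melanin and tanned cuticle were a separate list of 15, of which 13 were measured, while Hn and b were not analysed here. Of these 3 rose and 1 fell, beside 4.31% and 3.49% of the brightest probe sets of all genes, and the median difference was 0.33. The rises were those of amd, a relative of dopa decarboxylase that acts on catechols in the cuticle, and of PPO1 and PPO2, prophenoloxidases of the crystal cells of the blood. The list was chosen with results of these data known.

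The fall was that of tan (t), the hydrolase that frees dopamine from its beta-alanyl conjugate. It read 7.57, 7.89 and 6.78 in wild type and 5.69, 5.72 and 5.85 in Sage overexpression. Every Sage array was lower, with wild type 3.16-fold higher (log2 difference -1.66, SE 0.27, limma adjusted p 0.020). On the same arrays the 5′ end controls differed by -1.38, -1.21 and -1.21. The 24 probe sets for polyA spike-ins, all lower on the Sage arrays, had a median of -1.65. The part of such shifts in the fall of t was not tested. The call for t was lost without any 1 array other than wild type array 2 or 3 (adjusted p up to 0.094). Its counterpart ebony (e), which makes that conjugate, had a positive difference of 0.88 (SE 0.22) that did not pass (limma adjusted p 0.075). It read 6.09, 6.42 and 5.88 in wild type and 6.58, 7.22 and 7.24 in Sage overexpression, without overlap, and it passed with the replicate block (limma adjusted p 0.034). That block also brought in Mco1, a multicopper oxidase gene (difference 0.89, limma adjusted p 0.157 without and 0.031 with the block), which makes 5 raised genes.

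PPO2 was higher on all Sage arrays, at 11.11, 11.34 and 11.26 against 10.32, 10.46 and 10.22, or 1.88-fold (limma adjusted p 0.0064). PPO1 behaved alike, with 11.23, 11.24 and 11.22 against 10.51, 10.62 and 10.47, or 1.62-fold (limma adjusted p 0.0064). Both passed in each of the 15 alternative settings. Of 4 blood cell markers 1, Pxn, also rose, by 1.06 (limma adjusted p 0.0019), Hml lay within the control range, and srp and crq had differences of -0.26 and -0.33 that did not pass (limma adjusted p 0.71 and 0.26). The median of the 4 was -0.08. Their summed level was 1129 to 1452 on the wild type arrays, against 1729 to 1788 on the Sage arrays. That higher sum came from Pxn alone, at 10.22, 10.22 and 10.21 on the Sage arrays against 9.07, 9.27 and 9.14. It therefore does not show a higher level of the blood cell markers as a set. The part of blood cells in the rises of PPO1 and PPO2 was not tested. The gene amd read 9.39, 9.68 and 9.82 in wild type and 10.54, 10.66 and 10.45 in Sage overexpression, 1.89-fold higher (limma adjusted p 0.014), and missed the threshold in the fits lacking a Sage array (adjusted p up to 0.070).

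No difference passed for ple and Ddc, early in the route, or for stw. The tyrosine hydroxylase gene ple lay within the control range in both groups, at 4.37 ± 0.03 and 4.53 ± 0.16, so no difference could be read. Dopa decarboxylase (Ddc) had a difference of 0.67 with a 95% interval from 0.02 to 1.33 (limma adjusted p 0.22). For stw, the laccase that hardens cuticle, the brightest of 3 probe sets had a difference of 0.25 with an interval from -0.78 to 1.28 (limma adjusted p 0.82), and the other 2 lay within the control range.

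Most members stand next to each other in the genome, which allows neighbours to be compared. In the Release 6 gene table yellow-d and yellow-d2 are adjacent, as are yellow-f and yellow-f2, and yellow-e3, yellow-e2 and yellow-e stand in a row, while yellow-b, yellow-c and yellow-h stand alone. Of the 24 protein-coding genes within 2 places of these 6 loci, 19 were measured and 0 passed by limma, where 6.12% of all probe sets did, so that a count of 0 among so few does not set them apart. At an unadjusted p under 0.05 there were 5, but the share of all probe sets under that p was not counted, so no excess can be read. With the replicate block 1 neighbour fell, Crk near yellow-h, where 5.94% of all probe sets were lowered. The differences of the 19 ran from -0.69 to 0.51. Among them CG30414, ppk17, Ir87a and CG14383 had means within the control range in both groups, so no difference could be read for these. Beside yellow-d, CG13551, which overlaps it in the table, had a difference of -0.32 (SE 0.14). Beyond yellow-d2, CG30414 had means of 4.16 in wild type and 3.97 in Sage overexpression, within the control range. Beside yellow-b, BuGZ had a difference of -0.31 (SE 0.09). On its other side ppk17, which overlaps yellow-b, had means of 4.92 in wild type and 4.99 in Sage overexpression, within that range too. Around yellow-h, at -0.72, Crk had -0.69 (SE 0.16) and dpr7 -0.51 (SE 0.15), both lower on every Sage array but not past the threshold (limma adjusted p 0.059 and 0.105), while the adjacent CG31999 and CG1674 had 0.42 and 0.50 with overlapping groups. Within a group of neighbours the members themselves differed, with 3.93 against 0.76 for yellow-d and yellow-d2, 1.02 against -0.50 for yellow-e and yellow-e2, and 0.84 for yellow-f2 beside yellow-f in the control range. These differences between members were not tested, because the comparison had served to choose the family.

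**Figure D3:**
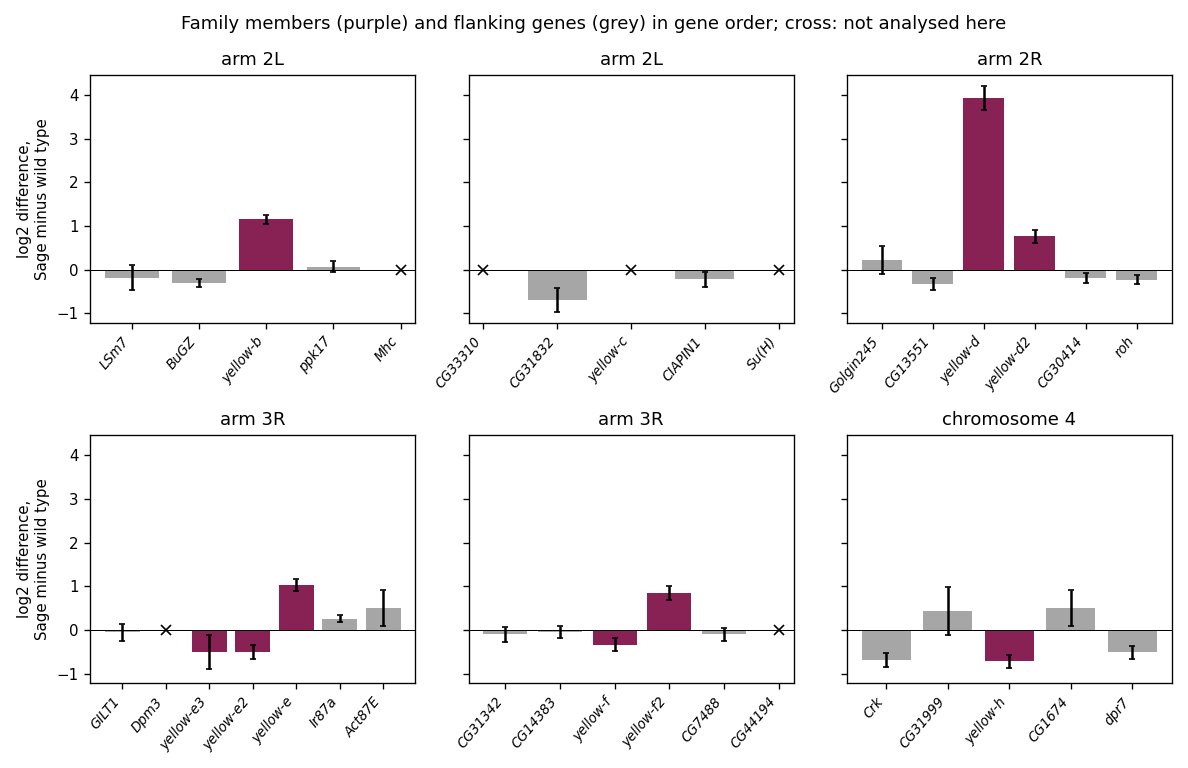
Log2 difference, Sage overexpression minus wild type, with its SE, for the family members (purple) and up to 2 protein-coding genes on either side (grey) at 6 loci, in gene order and not to scale along the chromosome. The purple bars of yellow-d, yellow-d2, yellow-b, yellow-e and yellow-f2 rise above their grey neighbours, which stay between -0.69 and 0.51. In both groups yellow-f and the neighbours CG30414, ppk17, Ir87a and CG14383 lie in the control range.

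Spread within the groups is given as a description too, since earlier results of these data were known when the family was chosen. Wild type array 2 held the highest of the 3 wild type values in 8 of the 9 members, all but yellow-e, and it did so in 51.0% of all probe sets. Sage array 2 was the highest of its group in 3 members, and in 45.7% of all probe sets. The deviations of wild type array 2 from its group mean ran from -0.06 for yellow-e to 0.59 for yellow-d and 0.92 for yellow-e3. On that array the summed level of the Tweedle genes was 15570, against 34550 and 44000 on wild type arrays 1 and 3, and the part of this in the members' values was not tested. In the blocked fit, the term for the replicate number passed for 0 of the 9 members and for 0.639% of all probe sets (limma, adjusted p under 0.05). The wild type SD exceeded the Sage SD in 8 members, all but yellow-d2, and in 64.4% of all probe sets. In a fit without either array 2, chosen after seeing the data, 5 members were raised and 1 lowered, and over all probe sets 890 were raised and 796 lowered.

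**Figure D4:**
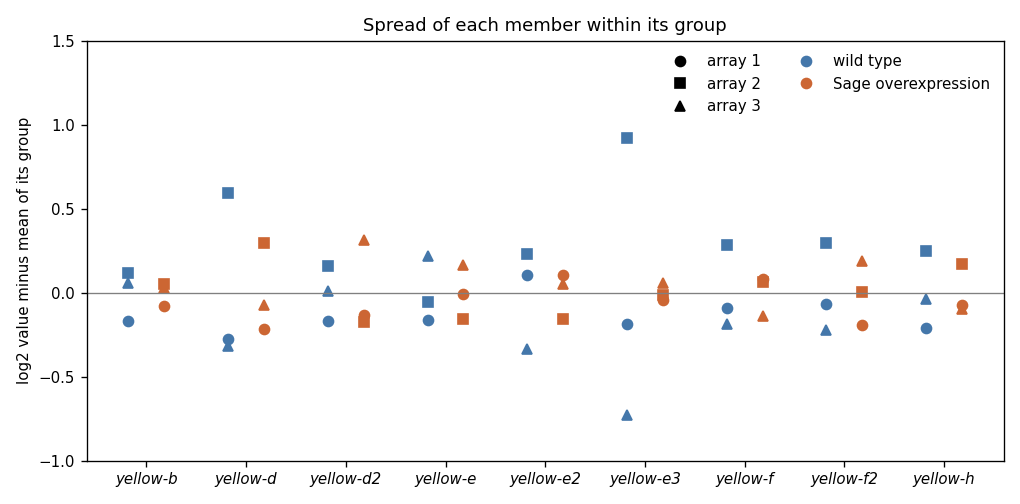
Deviation of each array from the mean of its group, on the log2 scale, for the 9 members, with wild type in blue, Sage overexpression in orange and the array number as the symbol. The blue squares of wild type array 2 lie highest of the blue symbols for all members but yellow-e, and reach 0.92 for yellow-e3.

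The probe sets closest to yellow-d in pattern were found by the root mean square difference over the 6 arrays after each was centred on its wild type mean. They belonged to Npc2e, of a sterol-binding protein family (0.28), CG16727 (0.30) and CG9702 (0.32). Npc2e read 7.86, 7.85 and 7.64 in wild type and 11.61, 11.90 and 11.74 in Sage overexpression, a difference of 3.97. For yellow-h the closest were Sugb (0.045), TotF (0.046), of the Turandot family of secreted stress peptides, and hng2 (0.048), with differences of -0.73, -0.72 and -0.71. Sugb, TotF and hng2 were each highest on array 2 in both groups, as yellow-h was, and TotF read 6.82 and 6.08 there. They were picked for likeness over these 6 arrays, so the shared peak is no separate result.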

How the data were processed

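The authors deposited log2 values per probe set for the 6 arrays. RMA and Partek are named in the submitters' processing notes, without versions or filters. The log2 scale was taken from the values, which run from 2.90 to 14.6 with means of 6.36 on every array. Probe sets were named through the platform annotation and, by gene number, the Release 6 gene table (13544 of 13647 one-gene probe sets matched). The annotation pairs 402 probe sets with several genes and leaves 4720 unnamed here. The 183 control probe sets were left out of the tests. A gene outside the family was represented by its brightest probe set. No sequences were used here.

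limma 3.58.1 in R 4.3.3 (lmFit, eBayes, no covariates) compared the groups on all 18769 probe sets, two-sided, with Benjamini-Hochberg adjustment at 0.05. The procedure was tested on simulated data. Alternatives were 2 other normalizations, a filter on dim probe sets, trend and robust moderation, array weights, an adjusted p of 0.01, the replicate block, 1 probe set a gene, and leaving out each array. Members and lists were chosen with earlier results of these data known. Named are all members, 4 relatives, fixed list genes and the 3 closest patterns. Figures used matplotlib 3.10.9 and pandas 2.3.3 under Python 3.11.15.

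The titles give both groups replicate numbers 1 to 3. Deviations from the group means correlated at 0.391, 0.668 and 0.334 between arrays of the same number. Wild type array 3 with Sage array 1 gave 0.429, more than the pairs numbered 1 and 3. The labels do not say what a number shares, so the replicate block served only as an alternative.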

Additional observations from a re-analysis of the deposited data

Results flagged for a closer look

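Control probe sets that no comparison used differed between the groups. The gap between the 3′ and the 5′ probe set of a control transcript was larger on every Sage array than on every wild type array, by a mean log2 value of 1.29 for actin, of 0.83 for GAPDH and of 0.82 for eIF-4a. For actin the wild type gap was 1.48 ± 0.10 (SD, n = 3) and the Sage gap 2.77 ± 0.04. The 24 probe sets for polyA spike-ins were all lower on the Sage arrays (median log2 difference -1.65), and the 18 for hybridisation controls had a median of 0.08.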

How the results depend on the processing

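No member changed the sign of its difference in any of the 134 values from alternative settings, and 107 of these kept their side of the threshold. The dim filter, trend and robust moderation, the replicate block, the stricter threshold and 1 probe set a gene leave each difference as it was. No sign could change in those settings. Members raised and lowered were 3 and 0 with quantile normalization, 2 and 0 at an adjusted p of 0.01, 5 and 0 with trend and robust moderation, 5 and 2 with array weights, and 2 to 5 and 0 to 1 when 1 array was left out. The replicate block left the members at 5 and 1. Of the melanin and tanning list, 6 rose and 2 fell with array weights, 5 rose with the replicate block, 0 fell at an adjusted p of 0.01, and 2 to 4 rose and 0 to 1 fell without 1 array. Over all probe sets, 608 raised and 541 lowered became 613 and 475 with quantile normalization, 602 and 479 with trend and robust moderation, 2002 and 1984 with array weights, 1077 and 1114 with the replicate block, 231 and 118 at 0.01, 230 to 935 and 105 to 922 without 1 array, the highest of both without wild type array 2. Median centring turned the split to 536 raised and 619 lowered. Differences near 0 changed sign in some settings. With array weights y became -0.039, yellow-g2 -0.0003, yellow-k 0.037 and stw -0.16. Without both arrays numbered 2, y was -0.23, yellow-g -0.019, yellow-g2 -0.075, yellow-k 0.050 and stw -0.24. When 1 array was left out, y ran from -0.195 to 0.27, yellow-g from -0.041 to 0.39, yellow-g2 from -0.061 to 0.14, yellow-k from -0.036 to 0.046, stw from -0.27 to 0.58, Dhpr from -0.087 to 0.26 and PPO3 from -0.029 to 0.20. The cause of these changes was not tested. Signal near the control range limits what can be read for yellow-f, yellow-f2, yellow-g, yellow-g2, yellow-k, ple and PPO3.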

Other observations

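Within wild type, 8 of the 13 measured melanin and tanning genes were highest on array 2, beside 51.0% of all probe sets. The same held for 8 of the 9 family members. However, y, stw, Mco1 and Ddc, picked after their values were seen, were lowest there. The founding gene y read 5.60 there and 6.50 and 6.52 on the other wild type arrays. The laccase gene stw read 8.46 there against 9.91 and 10.16, and the multicopper oxidase gene Mco1 5.05 against 5.67 and 6.12. Ddc read 6.27 there against 6.85 and 6.80. On the same array yellow-e3 read 9.30 against 8.20 and 7.65. The Sage arrays showed less of this spread for y (6.0 to 6.55), stw (9.65 to 9.94) and yellow-e3 (7.83 to 7.94). The spread was also smaller for Mco1 (6.14 to 6.85), but larger for Ddc (6.78 to 7.72). In 64.4% of all probe sets the wild type SD was the larger one.

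Of the remaining genes of the melanin and tanning list, Pu, which starts the cofactor of tyrosine hydroxylase, had a difference of -0.52 (SE 0.23), and speck, a dopamine acetyltransferase gene, 0.33 (SE 0.16). Neither passed (limma adjusted p 0.27 and 0.32), and both passed with array weights.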
